A study of Arabidopsis thaliana with 13 samples.

Results

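Mitochondrion-encoded genes were taken as the rows of the expression table whose identifier starts with ATMG, the locus prefix of the Arabidopsis mitochondrial genome. There were 146 such rows among 33560. Plant mitochondria keep a small genome of their own, with genes for subunits of the respiratory chain and the ATP synthase, for cytochrome c maturation, for ribosomal proteins and for ribosomal and transfer RNAs. Their transcripts are made by nucleus-encoded polymerases and are processed by splicing and by C-to-U editing. Most plant mitochondrial mRNAs carry no long poly(A) tail, and a copy of much of this genome lies in the nucleus of Col-0, on chromosome 2.

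RNA was measured in sorted root cells of Arabidopsis thaliana Col-0, 5 days after germination, from roots that had been turned into protoplasts. QC-marker cells (QC cells below, named by their reporter), which carry WOX5::GFP, a reporter active in the quiescent centre of the root stem cell niche, came from the wox5-1 mutant (4 libraries) and from the wild type (3 libraries). CEI-marker cells (CEI cells), which carry CYCD6::GUS-GFP, a reporter of a D-type cyclin that marks divisions of the cortex and endodermis initials, came from wox5-1 (3 libraries) and from the wild type (3 libraries). The mutant lacks WOX5, a homeobox transcription factor of the niche, in every cell of the plant, and the WOX5 reporter is the gate for one of the populations. Libraries of a group are labelled as biological replicates. All groups share the ecotype, the age and the protoplast step, and cDNA was amplified from low input. Levels are in FPKM, which scales fragments by transcript length and by the number mapped. In sorted bulk samples, fewer cells of a type and less RNA per cell cannot be told apart.

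WOX5 was at 0 to 0.114 FPKM in wox5-1 QC cells, against 163 to 262 FPKM in wild-type QC cells. AGL42, another QC marker, was at 7.06 to 11.4 FPKM in wox5-1 QC cells, against 16.3 to 32.9 FPKM in wild-type QC cells. The reporter gene of the CEI population, CYCD6;1, was between 0 and 22.7 FPKM over the 13 libraries, so its own transcript did not set the CEI libraries apart. Estimated depth was 24.7 to 37.3 M fragments (M, mega) in wox5-1 QC libraries and 5.84 to 7.92 M in wild-type QC libraries. It was 18.0 to 32.6 M in CEI libraries (18.7 to 32.6 M in those of the wild type). In QC cells genotype and depth can therefore not be told apart, and neither can population and depth in the wild type. The difference between the genotype effects shares this limit. Wild-type QC library 2 listed 19783 rows at 0, and the others 5385 to 12971. Green tissue genes summed to 11226 FPKM in wox5-1 CEI library 1 and to 0 to 39.6 FPKM elsewhere. Root cap genes summed to 2371 FPKM in wild-type CEI library 4 and to 10.4 to 990 FPKM elsewhere. The part of these differences in the results below was not tested.

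Most of the mitochondrial signal sat in few rows. Of the 146 members, 69 were listed at 0 in all 13 libraries (47.3%, against 6.69% of all rows of the table), 51 were above 0 in some libraries and 26 in every library. Mean FPKM was at least 100 in 3 members, between 10 and 100 in 13, between 1 and 10 in 44, and above 0 but below 1 in 17. Of the 51, 20 were at 0 in wild-type QC library 2 alone, which had 30 members above 0, against 60 to 74 in the other libraries.

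Names for members came from notes in the RefSeq annotation of nuclear genes, which cover 53 of the 146 identifiers and give a protein or function name for 24 of these. The other 93 are given by identifier, and they include the most abundant rows. Members at 0 in every library were 27 of the 53 covered by those notes (50.9%) and 42 of the 93 others (45.2%). Among the members at 0 were ATMG00220, noted as apocytochrome b of complex III, ATMG00210, ATMG00290 and ATMG01270, noted as ribosomal proteins L5, S4 and S7, and ATMG01275, noted as a part of NADH dehydrogenase subunit 1.

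ATMG00020 was the most abundant member where it was listed. It was at 3366, 2526, 2794 and 3370 FPKM in wox5-1 QC cells, against 11687, 4427 and 10825 FPKM in wild-type QC cells. In CEI cells it was at 13724, 0 and 0 FPKM in wox5-1 libraries 1, 2 and 4, against 18599, 0 and 0 FPKM in libraries 1, 3 and 4 of the wild type. Where it was above 0 it held 75.9% to 85.0% of the summed FPKM of the ATMG rows. The QC groups did not overlap, and 4 of the 6 CEI libraries listed at 0 the row that led in the other 9, so sums are given with and without it.

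ATMG00030 came next. It was at 497, 304, 476 and 652 FPKM in wox5-1 QC cells, against 2272, 639 and 1599 FPKM in wild-type QC cells. It was at 2407, 7396 and 1893 FPKM in wox5-1 CEI cells, against 3858, 3163 and 2122 FPKM in wild-type CEI cells. Every wox5-1 QC library but library 4 was below every other library, and library 4 lay just above wild-type QC library 2. The row held 10.2% to 16.1% of the summed FPKM of ATMG rows in the libraries that list ATMG00020, and 67.6% to 79.5% in the 4 that do not. Without ATMG00020 in the sum its share was 45.5% to 79.5%, lowest in wild-type QC library 2 and, at 50.5%, in wox5-1 QC library 1. ATMG01390 was next by that share, at 4.595% to 10.7%, then ATMG00660 at 1.73% to 6.15%.

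**Figure D1:**
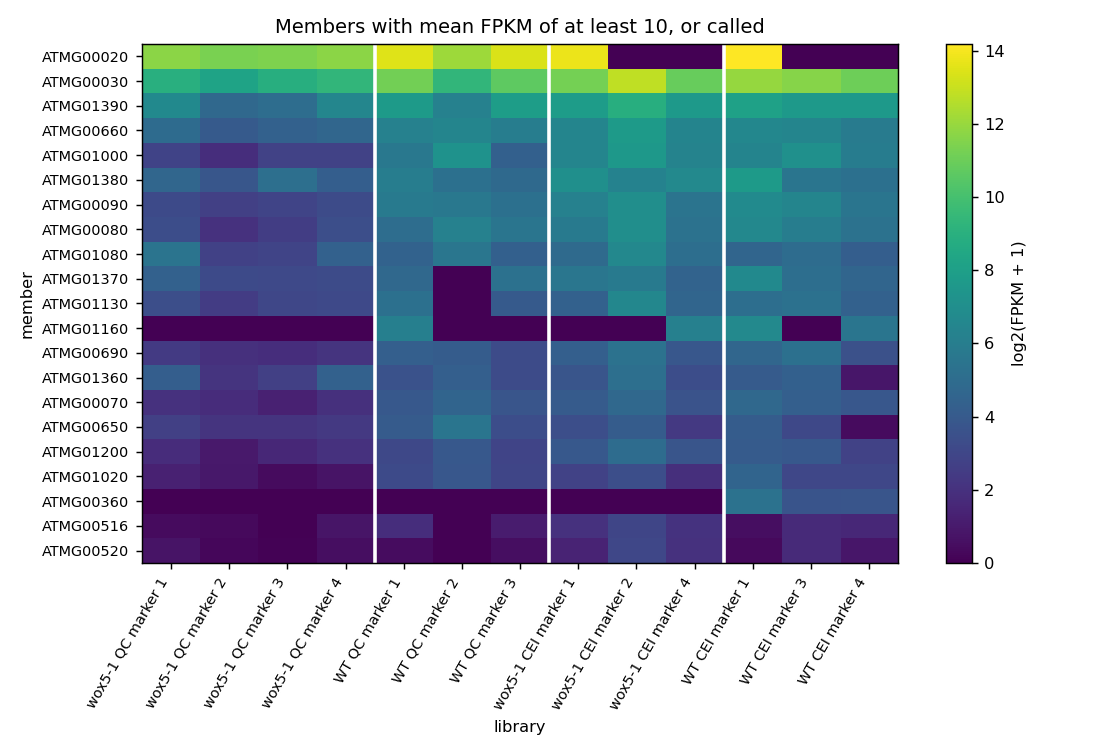
Level of the 21 members with a mean FPKM of at least 10 or called in a comparison, as log2(FPKM + 1), with 1 column per library and white lines between the 4 groups. The top row, ATMG00020, is at 0 in 4 of the 6 CEI columns, and most rows are darker in the 4 wox5-1 QC columns at the left.

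The mean mitochondrial share of the summed FPKM was lowest in wox5-1 QC cells. Over all ATMG rows it was 0.552%, 0.392%, 0.424% and 0.520% in wox5-1 QC cells, against 1.86%, 0.696% and 1.75% in wild-type QC cells. The groups did not overlap, and the mean was 0.472% ± 0.0761 (SD, n = 4) in wox5-1 and 1.43% ± 0.642 (SD, n = 3) in the wild type. An exact 2-sided permutation test gave p = 0.0571, the smallest that 4 against 3 libraries can give (0.152 adjusted over 8 tests). Over the 7 recalculations without a library, the difference (wox5-1 minus wild type) ranged from -1.33 to -0.751 percentage points. Its sign could not change there, since the groups did not overlap.

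In CEI cells the share was 2.02%, 1.37% and 0.407% in wox5-1 libraries 1, 2 and 4, against 2.80%, 0.553% and 0.383% in wild-type libraries 1, 3 and 4. The genotypes overlapped (exact permutation p = 0.9, with 0.1 the smallest that 3 against 3 libraries can give). The order followed ATMG00020: the library that lists it was the highest of each genotype.

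Without ATMG00020 the share in QC cells was 0.125%, 0.0589%, 0.0813% and 0.118% in wox5-1, against 0.400%, 0.168% and 0.307% in the wild type. In CEI cells it was 0.405%, 1.37% and 0.407% in wox5-1, against 0.644%, 0.553% and 0.383% in the wild type. The 4 wox5-1 QC libraries were then below all 9 others. Within wox5-1 the mean was 0.0958% ± 0.0313 (SD, n = 4) in QC cells and 0.728% ± 0.558 (SD, n = 3) in CEI cells, with no overlap and an exact permutation p = 0.0571, again the smallest possible (0.152 adjusted over 8 tests). Over all ATMG rows these populations overlapped (p = 0.229, exact permutation test). In the wild type, QC and CEI cells overlapped in both sums (exact permutation p = 0.8 with ATMG00020 and 0.2 without).

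**Figure D2:**
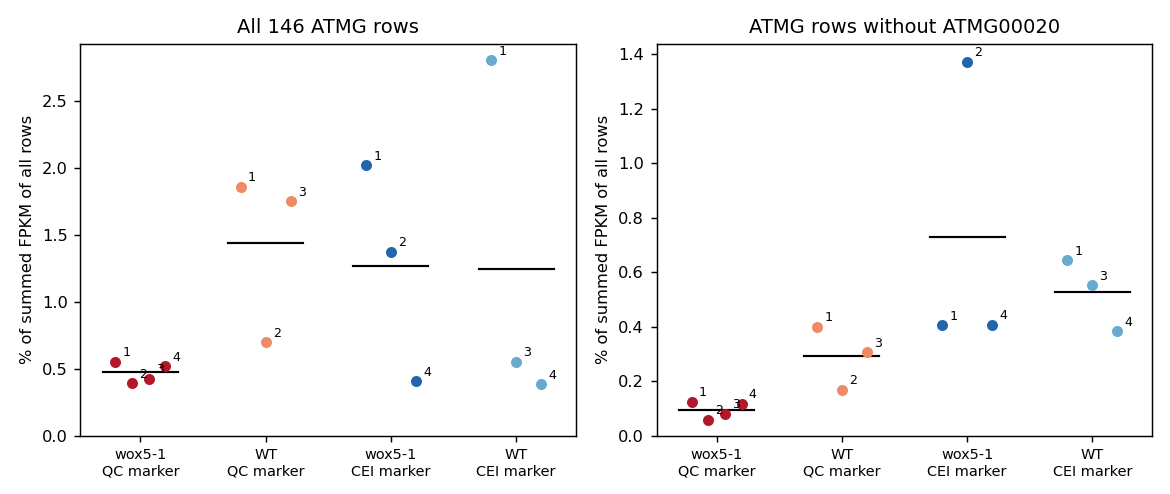
Percent of the summed FPKM of all rows that ATMG rows held, with ATMG00020 on the left and without it on the right. Points are libraries with their numbers and lines are group means. On the right the 4 wox5-1 QC libraries lie between 0.0589% and 0.125%, below the other 9.

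Differences of single members were tested with limma on log2(FPKM + 1) over 21574 rows, with Benjamini-Hochberg adjustment over all of them and calls at an adjusted p under 0.05. Of the members, 65 passed the filter on low values (at least 1 FPKM in at least 3 libraries). The 69 at 0 and 12 low ones were not tested. Changes are on the log2(FPKM + 1) scale, and understate those of low rows.

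In QC cells, 6 members fell in wox5-1 (9.23% of those tested, where 0.38% of all rows tested were called lower). No member was called higher, where 3.05% of all rows were called higher. At an unadjusted limma p under 0.05, 2 of the 65 members and 3623 of the 21574 rows were higher. The median change of the 65 members was -0.34, against 0.32 over all rows tested. Groups did not overlap in 13 members that were lower (20%, against 5.82% of all rows) and in 2 that were higher (3.08%, against 17.8%). The 6 members, ATMG00070, ATMG00080, ATMG00090, ATMG00660, ATMG01000 and ATMG01020, are not covered by the RefSeq notes and are given by identifier. This does not mean that they have no known function.

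ATMG01000 was at 6.17, 2.61, 5.84 and 5.98 FPKM in wox5-1 QC cells, against 50.8, 147 and 19.3 FPKM in wild-type QC cells. The highest mutant library was below the lowest wild-type one, and the wild-type values were spread widely. Its log2 change was -3.18 (SE 0.57, limma adjusted p = 0.0112). ATMG00080 was at 9.05, 3.03, 4.93 and 9.42 FPKM in wox5-1, against 33.1, 75.4 and 44.1 FPKM in the wild type. Its change was -2.79 (SE 0.50, limma adjusted p = 0.0104), with no overlap.

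ATMG00090 had the smallest adjusted p of the members. It was at 8.02, 5.40, 6.55 and 8.35 FPKM in wox5-1 QC cells, against 53.7, 49.8 and 36.9 FPKM in wild-type QC cells, a change of -2.56 (SE 0.41, limma adjusted p = 0.0063). Its mean was 7.08 ± 1.37 FPKM (SD, n = 4) in wox5-1 and 46.8 ± 8.79 FPKM (SD, n = 3) in the wild type, with little spread within either group.

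ATMG00660 was the most abundant of the 6. It was at 30.3, 15.0, 19.9 and 25 FPKM in wox5-1 QC cells, against 73.5, 86.4 and 64.4 FPKM in wild-type QC cells (change -1.72, SE 0.38, limma adjusted p = 0.0268). ATMG00070 was at 3.10, 2.54, 1.44 and 2.95 FPKM in wox5-1, against 14.0, 22.7 and 12.3 FPKM in the wild type (change -2.29, SE 0.46, limma adjusted p = 0.0174). Neither row had overlapping groups. ATMG01020 was low throughout, at 1.43, 0.879, 0.343 and 0.674 FPKM in wox5-1, against 7.94, 13.7 and 6.80 FPKM in the wild type (change -2.49, SE 0.56, limma adjusted p = 0.0281).

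ATMG00080, ATMG00090 and ATMG01000 were called in all 13 fits that leave out a library. ATMG00070 lost its call without wox5-1 QC library 3. ATMG00660 lost it without any 1 of the 4 wox5-1 QC libraries or wild-type QC library 2, and ATMG01020 without any 1 of the 4 wox5-1 QC libraries.

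**Figure D3:**
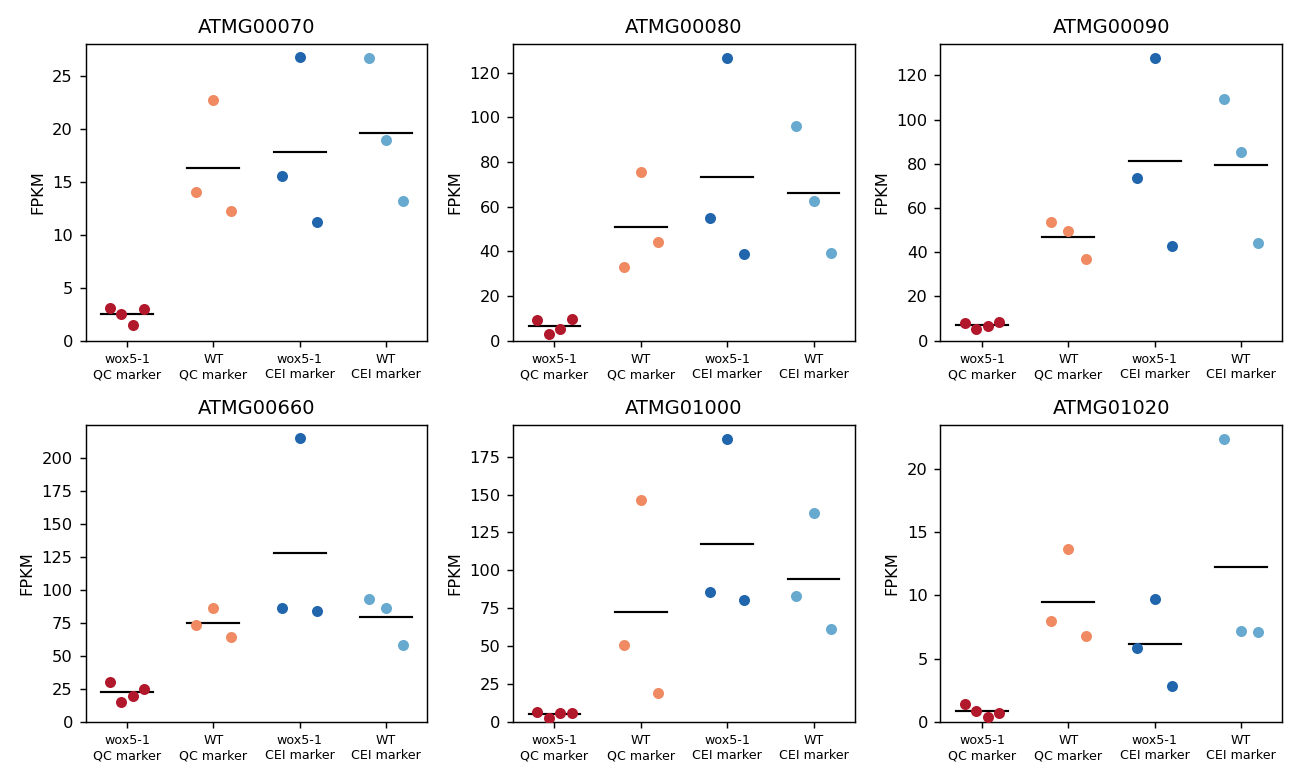
FPKM of the 6 members lower in wox5-1 than in wild-type QC cells, by group (points are libraries, lines are group means, axes start at 0). In each panel the wox5-1 QC points lie below all points of the other 3 groups.

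The abundant rows did not pass the same test. ATMG00030 had a change of -1.51 (SE 0.54, limma adjusted p = 0.142) and ATMG01390 of -1.52 (SE 0.54, limma adjusted p = 0.134), and in both the genotypes overlapped. ATMG00020 had a change of -1.46 with an SE of 3.28, since the shared spread includes the 4 CEI libraries at 0. At the other end, ATMG00680 was at 7.11, 2.02, 3.21 and 7.21 FPKM in wox5-1 QC cells, against 1.72, 0 and 0 FPKM in wild-type QC cells (limma adjusted p = 0.0851). ATMG00450 was at 6.45, 1.2, 1.96 and 3.70 FPKM in wox5-1, against 0 in each of the 3 wild-type libraries (limma adjusted p = 0.119). Both were higher in every mutant library, and neither passed.

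Scaling each library to the same sum of ATMG rows turned the question into one of composition. With ATMG00020 in the sum, 0 of the 6 were called lower and 2 members, ATMG00680 and ATMG00450, were called higher (3.08% of those tested). Of all rows 25.8% were then called higher and 0.0742% lower, so the members' share of higher calls was below the background. Without ATMG00020, ATMG01000 was the 1 member called lower (-1.82, SE 0.73, limma adjusted p = 0.0377) and 10 were called higher (15.4%). Of all rows 52% were then called higher and 0.199% lower. ATMG01000 held 0.626%, 0.587%, 0.885% and 0.610% of that sum in wox5-1 QC cells, against 1.62%, 10.5% and 0.851% in wild-type QC cells, so its shares overlapped between genotypes.

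The members covered by RefSeq notes gave no call in QC cells. These notes do not cover every member, so this does not speak of all genes with a known function. Of the 53, 18 were tested, 4 with a positive and 14 with a negative change in QC cells (median -0.31, smallest limma adjusted p = 0.119). Of the 24 with a protein or function name, 10 were at 0 in all libraries and 8 were tested, all 8 with a negative change in QC cells (median -0.77, smallest limma adjusted p = 0.333). ATMG01080, noted as subunit 9 of the F0 part of ATP synthase, which forms the proton-driven ring, was the most abundant of them. It was at 43.3, 5.69, 6.42 and 20.2 FPKM in wox5-1 QC cells, against 20.9, 46.3 and 19.5 FPKM in wild-type QC cells. It was at 29.1, 97.9 and 33.6 FPKM in wox5-1 CEI cells, against 23.5, 31.9 and 17.7 FPKM in wild-type CEI cells. Both pairs of genotypes overlapped, and wox5-1 CEI library 2 was the highest of all.

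ATMG01190, noted as ATP synthase subunit 1, of the catalytic part, was at 0.611, 0.427, 0.547 and 0.630 FPKM in wox5-1 QC cells, against 1.61, 0.694 and 1.80 FPKM in wild-type QC cells. These did not overlap, and the change of -0.58 (SE 0.43) did not pass (limma adjusted p = 0.477). ATMG01320, noted as a part of NADH dehydrogenase subunit 2 of complex I, was at 1.65, 0.974, 0.598 and 1.74 FPKM in wox5-1, against 2.96, 4.17 and 1.80 FPKM in the wild type (limma adjusted p = 0.402). ATMG00730, noted as cytochrome c oxidase subunit 3 of complex IV, was at 1.66, 0.376, 0.838 and 1.87 FPKM in wox5-1 QC cells, against 3.35, 4.45 and 0.771 FPKM in wild-type QC cells, with overlap. ATMG00990, noted as NADH dehydrogenase subunit 3, was at 0 in 9 libraries and at most 0.963 FPKM, and its neighbour in the design, ATMG00980 (ribosomal protein S12/S23 family), was at 0 in all 13.

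Between the populations in wox5-1, 12 members were lower in QC than in CEI cells (18.5% of those tested, where 1.67% of all rows were called lower). No member was called higher, where 2.64% of all rows were called higher. At an unadjusted limma p under 0.05, 0 members and 2755 of the 21574 rows were higher in QC cells. The median change was -1.25, against 0.30 over all rows. In 29 members the QC libraries were all below the CEI libraries (44.6%, against 9.72% of all rows). This comparison shares the 4 wox5-1 QC libraries with the one above, and 5 of the 6 members called there are among the 12.

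ATMG01000 had a log2 difference of -4.21 (SE 0.57, limma adjusted p = 0.00167), with 85.7, 187 and 80.6 FPKM in wox5-1 CEI cells. ATMG00090 was at 73.5, 128 and 42.7 FPKM there (-3.23, SE 0.41, limma adjusted p = 0.0012) and ATMG00080 at 54.7, 127 and 38.9 FPKM (-3.22, SE 0.50, limma adjusted p = 0.00381). In all 3 rows the lowest CEI library was above the highest of the wox5-1 QC libraries given above. ATMG00030 differed by -2.79 (SE 0.54, limma adjusted p = 0.0132), and ATMG00070 and ATMG00660 by -2.37 and -2.35.

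Other rows were called here and not between genotypes. ATMG01200 was at 2.48, 0.940, 1.95 and 3.03 FPKM in wox5-1 QC cells, against 13.8, 31.3 and 12.1 FPKM in wox5-1 CEI cells (-2.62, SE 0.53, limma adjusted p = 0.0149). ATMG00690 was at 4.33, 2.93, 2.57 and 3.31 FPKM in wox5-1 QC cells, against 18.4, 39.1 and 13.5 FPKM in wox5-1 CEI cells (-2.40, SE 0.51, limma adjusted p = 0.0192). Neither row overlapped. The remaining 4 were ATMG01390 (-2.36), ATMG01380 (-2.19), ATMG00516 (-1.97) and ATMG00520 (-1.74), at limma adjusted p between 0.0252 and 0.0400. ATMG00520 was at or above 1 FPKM in 0 QC libraries, in the 3 wox5-1 CEI libraries and in 1 of the wild type, so it was tested only because it was high in wox5-1 CEI cells.

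CEI library 2 of wox5-1 had the highest sum without ATMG00020 of all libraries, 9304 FPKM, against 2799 and 3377 FPKM in the other libraries of its group. Without that library 4 members were called, without wox5-1 QC library 2 or 3 there were 5, and without wild-type QC library 2 there were 20. The calls over all rows moved with them. Against 360 rows called lower with all libraries, there were 51 without that CEI library. There were 53 and 60 without wox5-1 QC libraries 2 and 3, and 752 without wild-type QC library 2. ATMG00080, ATMG00090, ATMG00660 and ATMG01000 were called in all 13 such fits. With libraries scaled to the ATMG sum, 1 member was called lower and 1 higher, where 0.816% of all rows were called lower and 2.84% higher. With ATMG00020 left out of that sum, 1 was lower (ATMG01000, -1.82) and 12 were higher (18.5%), where 1.25% of all rows were called lower and 76.7% higher. The differences of ATMG00660, ATMG01380 and ATMG01390 turned positive (0.20, 0.35 and 0.22).

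**Figure D4:**
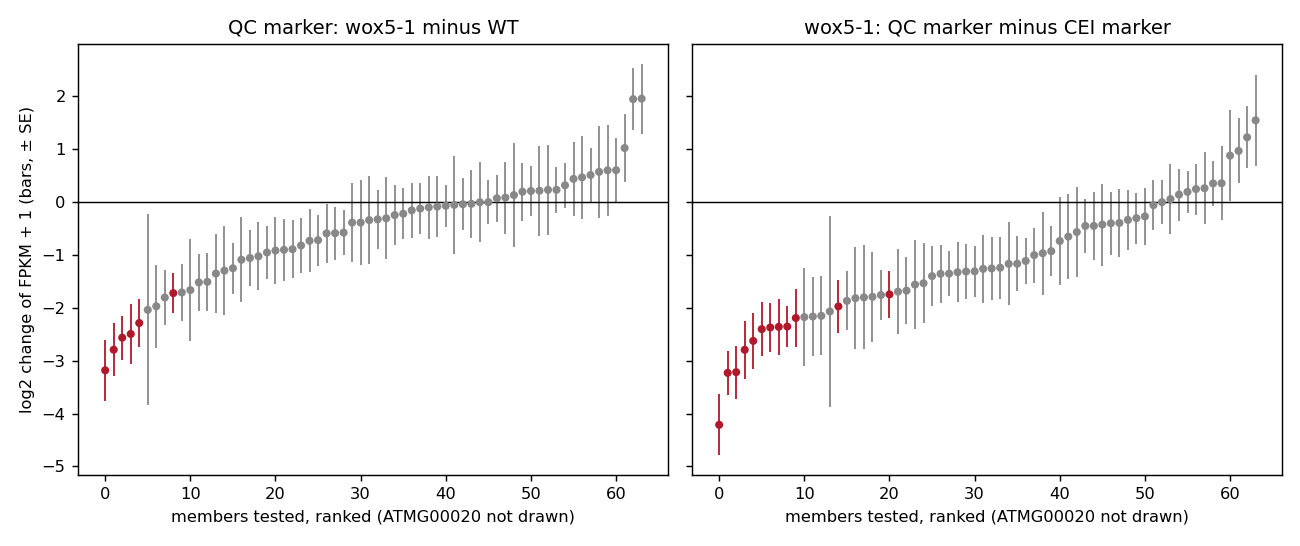
Log2 change of FPKM + 1 for the tested members other than ATMG00020, ranked, in QC cells (wox5-1 minus wild type, left) and in wox5-1 (QC minus CEI cells, right). Bars are ± 1 SE and red marks the called members, 6 on the left and 12 on the right, all below 0.

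In CEI cells 1 member differed between the genotypes. No member was called higher, where 0.0185% of all rows were. At an unadjusted limma p under 0.05, 1 uncalled member and 1182 of the 21574 rows were higher. Called lower was 1 member (0.00927% of all rows). The median change was 0.12, against 0.08 over all rows. Groups did not overlap in 2 members that were higher (3.08%, against 7.19% of all rows) and in 3 that were lower (4.62%, against 3.81%). The 1 member, ATMG00360, was at 0 in the 3 wox5-1 CEI libraries, against 39.6, 12 and 12.2 FPKM in wild-type CEI libraries 1, 3 and 4, and at 0 in all 7 QC libraries (limma adjusted p = 0.0014). No fold is given against groups listed at 0. The spread used in that test comes from 4 groups, 3 of which have none in this row. The row passed the filter on low values only through the 3 wild-type CEI libraries, where it is high, so its call is given as a description. With the compared groups alone, 0 members were called, and 0 of all 21574 rows in either direction.

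The same row was the 1 member called lower in wild-type QC than in wild-type CEI cells (limma adjusted p = 0.000699, where 0.107% of all rows were called lower), with the same limit. With the compared groups alone 0 members were called, and of all rows 1 was called higher and 0 lower. In the fit of all libraries no member was called higher, where 0.25% of all rows were. At an unadjusted limma p under 0.05, 1 member and 1391 of the 21574 rows were higher. The median difference was -0.40, against -0.10 over all rows. In 4 members all QC libraries were below all CEI libraries (6.15%, against 4.07% of all rows), and in 0 above them (against 5.98%). For the difference between the genotype effects of the populations, no member was called negative, where 0.0139% of all rows were. At an unadjusted limma p under 0.05, 11 members and 854 of the 21574 rows were negative. ATMG00360 was the 1 member called positive (limma adjusted p = 0.0325, where 0.00927% of all rows were). This call rests on the same 3 libraries. It was lost in 8 of the 10 fits without a library in which the row could be tested, at a pseudocount of 5 and at a filter of 5 FPKM.

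Some members at 0, 16 of 69, had a near-identical nuclear row that was not at 0. For 42 of the 69 the RefSeq notes give no match. The RefSeq notes tie members to 55 nuclear rows on chromosome 2, and the full span of all 55 aligned to the mitochondrial genome of the same assembly, with a best-hit identity of 99.03% to 100% (median 100%). Fragments of a member and of its nuclear match can therefore hardly be told apart, and the sources used here do not say how the authors' counting placed them. Of the 27 members at 0 with a match, 16 had a match above 0 and 11 had both at 0. Of the 26 members above 0 with a match, 20 had a match above 0 and 6 had it at 0.

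AT2G07708, the match of ATMG00500, a protein of unknown function at 0 everywhere, was at 7.76, 4.02, 6.21 and 6.20 FPKM in wox5-1 QC cells, against 40.3, 10.9 and 46.1 FPKM in wild-type QC cells. It was at 46.7, 149 and 40.6 FPKM in wox5-1 CEI cells, against 69.3, 94.5 and 32.3 FPKM in wild-type CEI cells. As in the sum of ATMG rows without ATMG00020, the wox5-1 QC libraries were the lowest and wox5-1 CEI library 2 the highest. Its change was -2.04 in QC cells (limma adjusted p = 0.0659), and -3.27 between the populations in wox5-1 (SE 0.57, limma adjusted p = 0.00732).

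AT2G07725, the match of the ribosomal protein L5 row, was at 2.74, 1.05, 0.787 and 2.72 FPKM in wox5-1 QC cells, against 11.9, 6.03 and 14.3 FPKM in wild-type QC cells (-2.06, SE 0.55, limma adjusted p = 0.0545). The match of the apocytochrome b row, AT2G07727, was at 2.72, 0.742, 0.748 and 2.24 FPKM in wox5-1 QC cells, against 3.59, 1.43 and 17.7 FPKM in wild-type QC cells, with overlap. Of the 29 matches tested, 2 were called higher and 1 lower (AT2G07674, -2.32, limma adjusted p = 0.0412) in wox5-1 QC cells, where 3.05% of all rows were called higher and 0.38% lower. Between QC and CEI cells of wox5-1, 1 was called higher and 6 lower, where 2.64% of all rows were called higher and 1.67% lower.

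The 2 matches called higher in QC cells were AT2G07664 and AT2G07835. AT2G07664 was at 42.9, 3.27, 3.0 and 29.5 FPKM in wox5-1 QC cells and at 0 in the 3 wild-type QC libraries, and in CEI cells it was above 0 in 1 library, at 0.303 FPKM. It was also the match called higher between the populations in wox5-1. It passed the filter only through the 4 wox5-1 QC libraries, where it is high, so both calls are given as a description. AT2G07835 was at 37.1, 6.99, 9.29 and 32.2 FPKM in wox5-1 QC cells, against 4.76, 0.908 and 2.06 FPKM in wild-type QC cells (2.48, SE 0.60, limma adjusted p = 0.0398). Both were highest in wox5-1 libraries 1 and 4. The members they match, ATMG01040 and ATMG00400, were at 0 everywhere and at 0.656 to 3.40 FPKM in wox5-1 QC cells.

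**Figure D5:**
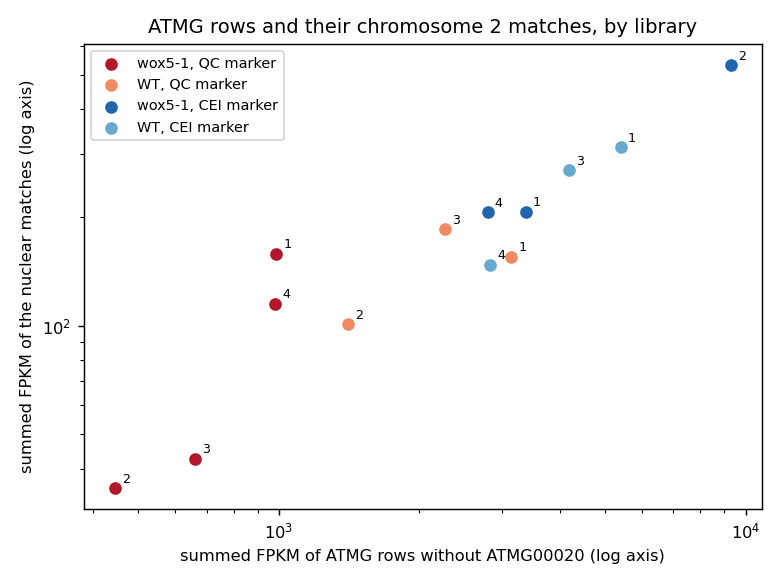
Summed FPKM of the 55 nuclear matches against summed FPKM of ATMG rows without ATMG00020, on log axes, with 1 point per library. The wox5-1 QC libraries 2 and 3 lie lowest on both axes (35.3 and 42.6 FPKM in the matches) and wox5-1 CEI library 2 highest (531 FPKM). In the matches, wox5-1 QC libraries 1 and 4 (159 and 115 FPKM) overlap the wild-type QC libraries (101 to 185 FPKM).

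Nuclear genes for mitochondrial functions gave few calls. Of 9 tested genes of mitochondrial DNA and RNA metabolism and 13 of the respiratory chain and ATP synthase, 0 were called by limma in any of the 4 comparisons of groups. At most 3.05% of all rows were called in 1 direction there, so 0 among so few genes is near that share. In QC cells 2 of the first list and 0 of the second were at an unadjusted p under 0.05, with medians of 0.68 and 0.43, against 0.32 over all rows. Among 8 genes of alternative respiration, which bypasses proton pumping, NDB2, an external NAD(P)H dehydrogenase, was at 147, 134, 155 and 153 FPKM in wox5-1 QC cells, against 83.8, 20.5 and 64.4 FPKM in wild-type QC cells. The groups did not overlap, and the change of 1.59 (SE 0.41) was at the threshold (limma adjusted p = 0.04997). AOX2, an alternative oxidase, was at 9.03, 10.7, 8.23 and 5.10 FPKM in wox5-1 QC cells, against 0.0429, 0.0641 and 1.01 FPKM in wox5-1 CEI cells (2.79, SE 0.59, limma adjusted p = 0.0184). Each was the 1 call among the 8 in its comparison, where 3.05% and 2.64% of all rows were called higher.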

How the data were processed

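RNA of 13 libraries in 4 groups was analysed. The values are FPKM as deposited by the authors in 1 table, made with Cufflinks (version not given) per the submitters' processing notes. No source used here gives the aligner, build, annotation or strand setting, and no coordinates or sequences are printed. Columns of QC-marker libraries name their sample. Those of CEI-marker libraries name only the group, and their numbers serve as names. Columns left unused numbered 0.

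The members and lists were chosen with earlier results of these data known. Those described are members called in any comparison, the most abundant ones, the largest changes and those with a RefSeq note (TAIR10.1). Functional groups were applied to identifiers that RefSeq notes annotate, except that 1 alternative left out ATMG00020, ATMG01380 and ATMG01390, listed as rRNA without such a note.

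limma 3.58.1 (R 4.3.3) was fitted with a trend to log2(FPKM + 1), 1 mean per group, with 9 residual degrees of freedom, 2-sided, and was tested on simulated data. Shares were compared by exact permutation. Nuclear matches were aligned with blastn (BLAST+ 2.17.0). Depth was estimated from the steps of low FPKM values, and 29.5% to 42.8% of values lay within 0.1 of a whole fragment, where evenly spread values give 20%. Since the step was picked for the highest share, the excess is overstated. No molecular identifiers are named, so fragments are not independent molecules. Alternatives were pseudocounts of 0.1 and 5, other filters, scalings, the compared groups alone, a replicate block and leaving out each library. Those without ATMG00020 were chosen after seeing the data.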

Additional observations from a re-analysis of the deposited data

Results flagged for a closer look

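ATMG01000 in wox5-1 QC-marker library 2, at 2.61 FPKM, stood apart from the other 3 libraries of its group (5.84 to 6.17 FPKM). Of 17 values checked in this way in the group of 4, 1 was flagged, and chance flags about 1 in 20. The member was called lower with and without that library.

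ATMG00360 differed between the populations in its genotype effect, by the test of the difference itself. The fitted difference, QC-marker effect minus CEI-marker effect, was 4.25 on the log2(FPKM + 1) scale (limma adjusted p = 0.0325). The row is listed at 0 in 10 of 13 libraries, so this is no fold. It entered the test only through the 3 wild-type CEI-marker libraries, where it is high. It was called in 2 of the 10 fits without 1 library in which it could be tested, those without wild-type QC-marker library 1 or 2.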

How the results depend on the processing

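Members called higher and lower in QC-marker cells (0 and 6) were 2 and 0 with libraries scaled to the ATMG sum, and 10 and 1 without ATMG00020 in that sum, where 25.8% and 52% of all rows were called higher. Between the populations in wox5-1 (0 and 12) they were 1 and 1, and 12 and 1, where 2.84% and 76.7% of all rows were called higher. Between the populations in the wild type (0 and 1) they were 1 and 1 with the ATMG sum. Of all rows 0.0556% were then called higher and 0.134% lower. With the compared groups alone, 0 were lower in CEI-marker cells, 0 between populations in the wild type and 24 in wox5-1. Of all 21574 rows, 0, 0 and 1449 were then called lower. For the difference of effects (1 higher), 0 members were higher at a pseudocount of 5 and at a filter of 5 FPKM. Of all rows, 3 and 0 were then called higher. With the ATMG sum without ATMG00020, 3 members were higher (4.62% of those tested), where 13.1% of all rows were. With a replicate block 0 members were lower in QC-marker cells, where 0 of all 21574 rows were called in either direction. Deviations of same-numbered QC-marker libraries 1 to 3 correlated at 0.031, 0.090 and -0.057. These 3 pairs gave no sign of pairing by number, and are too few to settle it.

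Leaving out 1 library gave 0 to 1 higher and 3 to 7 lower in QC-marker cells, and 0 to 1 lower in CEI-marker cells. It gave 0 to 2 lower between populations in the wild type, and 0 to 1 higher and 4 to 20 lower in wox5-1. For the difference of effects it gave 0 to 1. Over all rows these fits gave 19 to 143 lower in QC-marker cells and 51 to 752 between populations in wox5-1. The share differed by -0.411 to 0.798 points between genotypes in CEI-marker cells (-0.121 to 0.363 without ATMG00020) and by -0.243 to 0.966 between populations in the wild type. This wild-type difference turned to -0.235 without ATMG00020 and to -0.226 without plastid and rRNA rows, a setting that also leaves out ATMG00020, with ATMG01380 and ATMG01390, and so contains the other. ATMG01360 in CEI-marker cells had 0.99, and ranged from -0.12 (without wild-type library 4) to 1.62. In wox5-1, ATMG01390, ATMG00660 and ATMG01380 turned to 0.22, 0.20 and 0.35 with the ATMG sum without ATMG00020. Median-of-ratios scaling moved the median of all rows from 0.32 to 0.19 in QC-marker cells and from 0.30 to -0.11 in wox5-1. Called lower were then 6 and 13 members, against 6 and 12. Of all rows, 71 and 476 were called lower, against 82 and 360. The cause of these changes was not tested.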
